A study of Sus scrofa with 4 samples.

Results

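ALB, TTR, RBP4, AHSG, SERPINA1 and ITIH1 encode 6 proteins that hepatocytes release into the blood without interruption in health. Their probe sets, the groups of short probes that read 1 transcript on an Affymetrix array, were taken where the deposited annotation lists the gene and the array design's own target description names the same gene. That rule gave 7 of the 15383 probe sets of the deposited expression table, 1 for each gene except ITIH1, which had 2. Liver RNA came from 4 Chinese miniature pigs at 4 months of age, with 1 porcine array per pig. The clenbuterol group was 1 male and 1 female fed clenbuterol, a β2-adrenergic agonist, in the diet from 8 weeks of age and over 8 weeks, where the dose was 25 mg/kg 2 times a day in the first 4 weeks and 50 mg/kg in the last 4. The control group was 1 male and 1 female on the same diet without the agonist. All pigs started at an average of 18 kg, and the design text calls them full sibs without making clear whether sibs shared a treatment. Every value is limited in precision by the number of arrays.

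Albumin carries fatty acids, bilirubin, hormones and drugs and sets much of the oncotic pressure of plasma. Transthyretin (TTR) carries thyroxine and also holds retinol-binding protein (RBP4), the carrier that brings retinol from liver stores to other tissues, so that the small RBP4 is not lost through the kidney. AHSG (fetuin-A) binds calcium phosphate and keeps it in solution, SERPINA1 (α1-antitrypsin) inhibits neutrophil elastase, and ITIH1 is a heavy chain of the inter-α-trypsin inhibitors that is passed to hyaluronan in the extracellular matrix. In people, albumin, transthyretin, RBP4 and AHSG fall in the blood during inflammation, while α1-antitrypsin rises.

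Each probe set was tied to its gene through the annotation. The ALB probe set (NCBI gene ID 396960) is described as albumin and is placed at chromosome 8 band q12 by the deposited annotation, and SERPINA1 (gene ID 397688), listed under its older symbol PI, is placed at chromosome 7 band q24-q26. AHSG (gene ID 397585) is listed as fetuin, and its current symbol was found through its gene ID. TTR (gene ID 397419) and RBP4 (gene ID 397124) are described by their pig mRNAs. The first ITIH1 probe set (gene ID 396963) is described by the pig ITIH1 mRNA, which 11 of its probes matched. The second, under the same gene ID, is described only as a transcribed locus with moderate similarity to mouse ITIH1, with 4 expressed sequence tags (ESTs, single reads of cDNA clones) as its transcripts. It is called the EST probe set here, and whether it reads the same mRNA as the first was not tested.

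All 7 probe sets passed the filter for testing, a log2 value of at least 4 on at least 2 arrays. On the deposited log2 scale of GCRMA, a method that corrects background with the probe sequence and equalises the arrays, 6 of them had group means between 14.31 and 15.32. The highest value of any probe set was 15.61. Ranked by brightness within each array, ALB was 7th to 9th, TTR 9th to 12th, and the other 4 bright probe sets lay between ranks 52 and 78. The EST probe set of ITIH1 ranked between 1423 and 1929. Brightness depends on the probes as well as on the RNA, so these ranks give no order of transcript amounts, and the pair of ITIH1 probe sets shows how far apart probe sets listed under 1 gene can be.

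The central question is whether the transcripts of these secreted proteins changed in the livers of treated pigs. In the carriers the differences were small. ALB had GCRMA values of 15.29 and 15.31 (log2) in clenbuterol livers, against 15.31 and 15.32 in control livers. The means were 15.30 ± 0.01 and 15.32 ± 0.01 (SD, n = 2 each), and the difference of −0.02 ± 0.08 (log2, SE) did not pass the test (limma, Benjamini-Hochberg adjusted p = 0.902). Its 95% interval ran from −0.22 to 0.19, which on the scale of the equalised GCRMA values bounds a fall at 1.17-fold and a rise at 1.14-fold. TTR had 15.23 and 15.20 in clenbuterol livers, against 15.24 and 15.25 in control livers. Both treated arrays lay just below both control arrays for these genes, by amounts near 0.02. For TTR the difference was −0.02 ± 0.08 (log2, SE, limma adjusted p = 0.846), with an interval from −0.23 to 0.18.

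RBP4 had 14.48 and 14.45 in clenbuterol livers, against 14.32 and 14.31 in control livers. The groups did not overlap, and the gap between them was wider than the spread within either, at a mean of 14.46 ± 0.02 in clenbuterol livers and 14.31 ± 0.01 in control livers (SD, n = 2 each). The difference was 0.15 ± 0.08 (log2, SE), 1.11-fold, and did not pass (limma adjusted p = 0.240, interval −0.06 to 0.36). With a prior variance that follows brightness (limma's trend option) it passed, at an adjusted p of 0.0354. Because the plasma proteins TTR and RBP4 travel as a complex, their probe sets were also set against each other within each array. RBP4 minus TTR was −0.76 (log2) on both clenbuterol arrays, against −0.92 and −0.94 on the control arrays. The gap was narrower in treated livers by 0.17, where the exact permutation test (two-sided) gave p = 0.333, the smallest that 2 arrays against 2 can reach. On log2 of the second deposited table the same gap was narrower by 0.11.

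AHSG and SERPINA1 differed in opposite directions by amounts that did not pass the test. AHSG had 14.54 and 14.53 (log2) in clenbuterol livers, against 14.47 and 14.46 in control livers. Its difference was 0.07 ± 0.08 (log2, SE, limma adjusted p = 0.546), with an interval from −0.14 to 0.28. SERPINA1 had 14.49 and 14.46 in clenbuterol livers, against 14.59 and 14.61 in control livers. The treated arrays were both lower, by −0.12 ± 0.08 (log2, SE), which did not pass (limma adjusted p = 0.304). With limma's trend option the adjusted p of SERPINA1 was 0.0534. The interval for SERPINA1, −0.33 to 0.08, bounds a fall at 1.26-fold on the scale of the GCRMA values.

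ITIH1 was the only member gene with more than 1 probe set, and the probe sets listed under it gave different calls. The mRNA probe set had 14.55 and 14.48 (log2) in clenbuterol livers, against 14.56 and 14.57 in control livers, a difference of −0.05 ± 0.08 (SE, limma adjusted p = 0.705). The EST probe set had 9.91 and 9.98 in clenbuterol livers, against 10.41 and 10.29 in control livers. Its groups were separated by more than their spread, with means of 9.95 ± 0.05 and 10.35 ± 0.08 (SD, n = 2 each). It was lower in clenbuterol livers by −0.40 ± 0.09 (log2, SE), 1.32-fold (limma adjusted p = 0.0404, interval −0.64 to −0.17). This call was lost when any 1 array was left out, where adjusted p ran from 0.0945 to 0.158, and in the second deposited table, where the difference of −0.38 had an adjusted p of 0.0847. After scaling that table to the spiked-in controls the difference was −0.0077 (limma adjusted p = 0.980), where the median of all tested probe sets was at 0.35. Within each array the EST probe set lay below the mRNA probe set by −4.63 and −4.50 (log2) in clenbuterol livers and by −4.15 and −4.27 in control livers, a change of −0.36 (exact permutation test, two-sided, p = 0.333, the smallest possible here). Both probe sets of ITIH1 were below 0, and they differed in size and in the call.

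**Figure D1:**
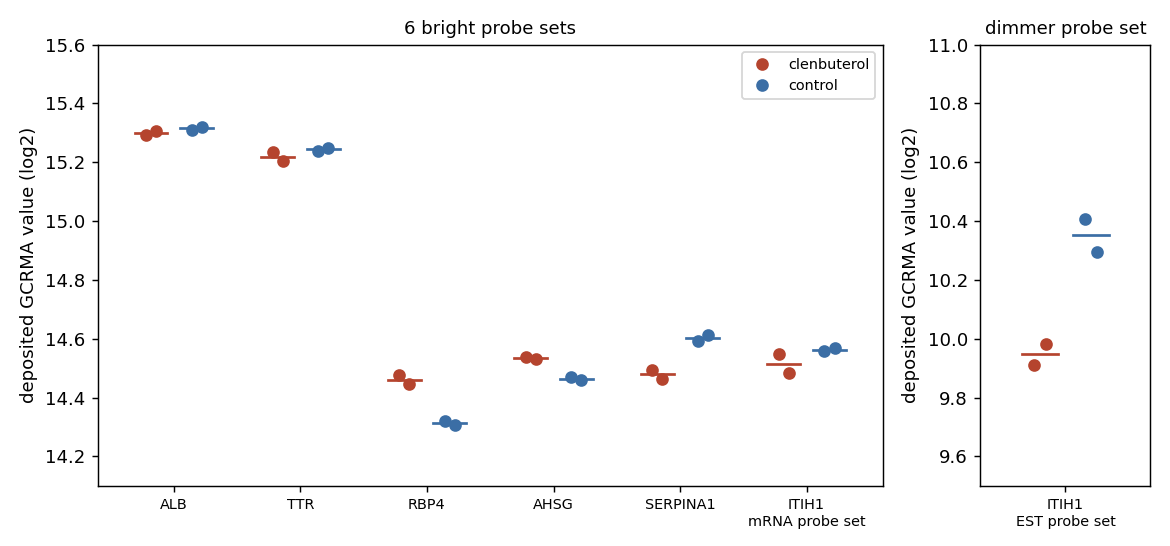
Deposited GCRMA value (log2, vertical axis) of each probe set on each array, with clenbuterol arrays in red at the left and control arrays in blue at the right of each pair. Points are arrays and lines are group means of 2, on separate axes for the 6 bright probe sets (14.31 to 15.32) and the EST probe set of ITIH1 (9.91 to 10.41).

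Of the 7 probe sets, 1 passed the adjusted threshold of 0.05, the EST probe set of ITIH1, and it was lower. Of all 11931 tested probe sets 2843 passed, which is 23.8%, with 11.4% higher and 12.4% lower in clenbuterol livers. The count of 1 in 7 is near that background. No other member had an unadjusted p under 0.05 in this fit (the lowest was 0.124, for RBP4). With limma's trend option the unadjusted p was 0.0084 for RBP4 and 0.0154 for SERPINA1. In none of the 7 did the GCRMA values of the groups overlap, but 68.1% of all tested probe sets also did not overlap, so this separation is common on these arrays. The median difference of the 7 was −0.02 (log2), with 5 below 0, beside −0.03 over all tested probe sets.

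Few of the brightest probe sets of the arrays passed the test. Among the 112 with a mean of at least 14, 8 passed (7.14%), while of the 1240 with a mean between 10 and 12, the range of the EST probe set of ITIH1, 27.1% passed. The median size of the difference, in either direction, was 0.08 (log2) in the brightest set and 0.24 over all tested probe sets. None of those 112 differed by 1 (log2) or more, against 715 of all 11931. The spread between control arrays also shrank with brightness, with a median SD of 0.02 in the brightest set and 0.08 over all. The 6 bright members, with differences from −0.12 to 0.15 and SDs from 0.0046 to 0.044, lay among such probe sets. Their SEs in the main fit hardly varied, from 0.077 to 0.080. In that fit limma draws the variance of each probe set towards a value shared by all tested ones, bright or dim. These SEs and the intervals thus reflect the shared value more than the spread of each member. Whether signals this bright still follow the RNA amount in proportion was not tested.

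**Figure D2:**
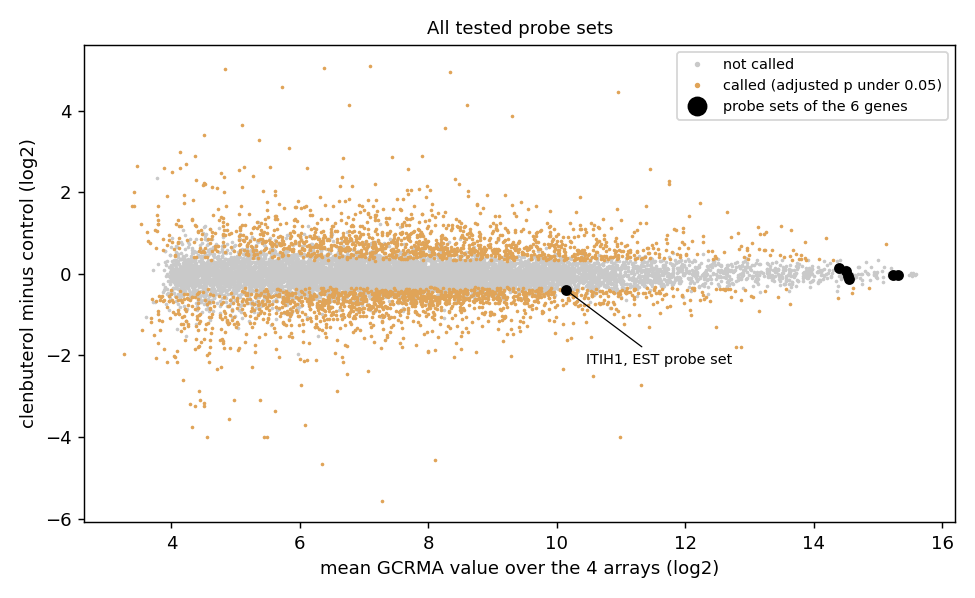
Difference between groups (clenbuterol minus control, log2, vertical axis) against mean GCRMA value over the 4 arrays (log2, horizontal axis) for the 11931 tested probe sets. Grey points did not pass, orange points passed an adjusted p of 0.05, and black points are the probe sets of the 6 genes, 6 of which lie near 0 at the bright end while the EST probe set of ITIH1 lies at −0.40.

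A second deposited table holds 1 linear intensity per probe set and array, with a near-equal trimmed mean on every array, and its columns name the pig. There ALB read 38077 in the clenbuterol male and 41251 in the clenbuterol female, against 37462 in the control male and 43115 in the control female. TTR read 30499 and 33441 in the clenbuterol male and female, against 31244 and 34163 in the control male and female. RBP4 read 25289 and 27350 in the clenbuterol pigs, against 24323 and 25720 in the control pigs. The values of the groups overlapped here for all 3 genes, and also for AHSG, SERPINA1 and the mRNA probe set of ITIH1. For ALB, TTR and RBP4, females of both groups read above males. The EST probe set of ITIH1 read 2169 and 2161 in the clenbuterol pigs, against 2880 and 2763 in the control pigs, with no overlap. How many of all tested probe sets did not overlap in these intensities was not counted. On log2 of these intensities the 6 bright probe sets differed between groups by −0.06 to 0.07 (limma adjusted p from 0.710 to 0.934). By limma 0 of the 7 passed there, beside 11.1% of all tested probe sets (8.83% with the replicate number as a block).

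The authors' deposited table gives its own statistics for the same probe sets. In it the limma p-value of the EST probe set of ITIH1 is 0.046, with a signed fold of −1.32, and the other 6 have p-values from 0.174 for RBP4 to 0.927 for ALB. The SAM q-value in the authors' deposited table is 0 for the 5 probe sets with a negative fold, ALB at a signed fold of −1.01 among them, and 0.0741 for RBP4 and AHSG. Of all probe sets in the authors' deposited table, 31.6% have a q-value of 0, and all of these have a negative fold. In the authors' deposited table none of the 7 carries the mark of probe sets chosen by both of their tools, which 4.49% of all probe sets carry.

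**Figure D3:**
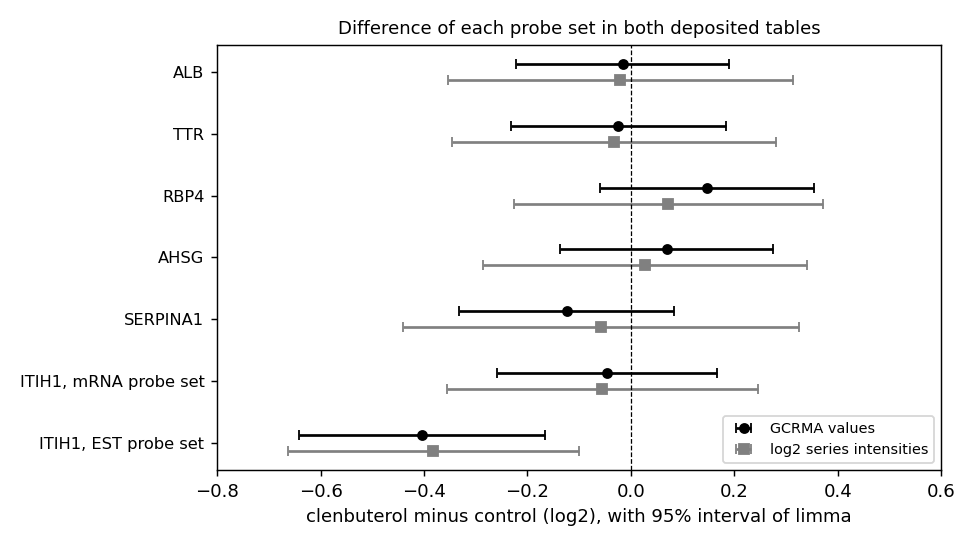
Difference of each probe set (clenbuterol minus control, log2, horizontal axis) with its 95% interval from limma, in the GCRMA values (black circles) and in log2 of the series intensities (grey squares). The intervals of the 6 bright probe sets span 0 in both tables, and those of the EST probe set of ITIH1 lie below 0, from −0.64 to −0.17 and from −0.66 to −0.10.

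Sex could be read only in the second table, whose columns carry it. All 6 bright probe sets were lower in males than in females, averaged over both treatments, by amounts from −0.23 for SERPINA1 to −0.09 for the mRNA probe set of ITIH1 (log2, male minus female), and the EST probe set of ITIH1 was at 0.03. The median over all tested probe sets was 0.0054. The summed intensity of 22 other plasma protein genes was also lower in males. It was 460904 and 439796 in the clenbuterol and control male, against 493401 and 484746 in the females. A sum of linear intensities is weighted towards its brightest genes, and the sex difference of each of the 22 was not read. Whether the shared sign is particular to the member probe sets, or common to probe sets this bright, was not tested. SERPINA1 read 24280 in the clenbuterol male and 25018 in the control male, against 28280 in the clenbuterol female and 29725 in the control female. Both males were below both females, yet the difference of −0.23 ± 0.11 (log2, SE) did not pass (limma adjusted p = 0.708, interval −0.54 to 0.07). By limma, 0 of the 7 probe sets passed, 0 had an unadjusted p under 0.05, and 1 of 11931 probe sets passed in all, 0.00838%. With 1 pig per sex and group, sex, the replicate number and the individual pig cannot be told apart.

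The response within each sex is a difference between 1 pig and 1 pig, and is described without a test. The EST probe set of ITIH1 was lower in the clenbuterol pig of both sexes, by −0.41 (log2) in the males and −0.35 in the females. RBP4 was higher in both pairs, at 0.06 in males and 0.09 in females, and SERPINA1 lower in both, at −0.04 and −0.07. TTR was at −0.03 in each pair. The mRNA probe set of ITIH1 was at −0.0014 in males and −0.11 in females. ALB and AHSG had opposite signs in the pairs, as did 25.5% of all tested probe sets.

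**Figure D4:**
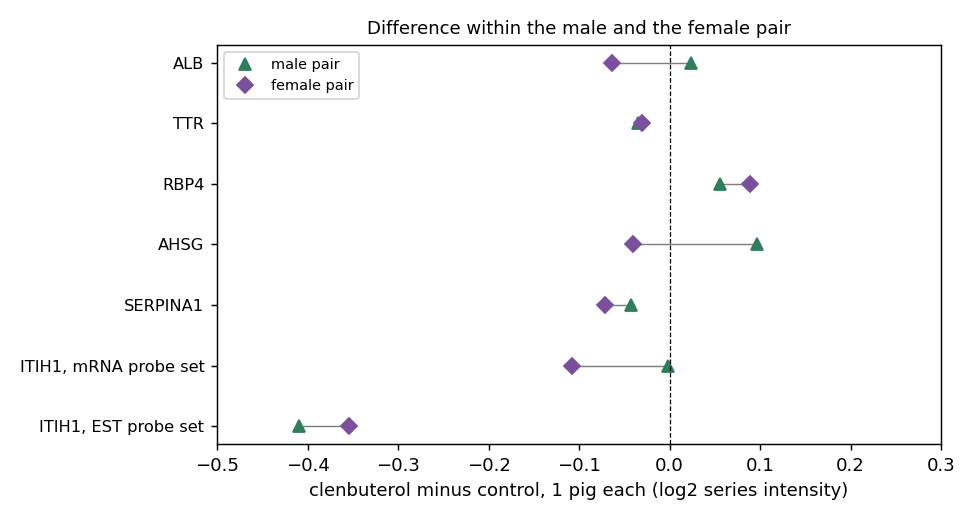
Difference within the male pair (triangles) and the female pair (diamonds), clenbuterol minus control in 1 pig each (log2 series intensity, horizontal axis), for the 7 probe sets. The bright probe sets lie between −0.11 and 0.10, and both pairs of the EST probe set of ITIH1 lie at or below −0.35.

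The names ALB and TTR also stand on 16 further probe sets whose target description names another transcript or none, 11 under ALB and 5 under TTR. They were left out of the members. Their targets include transcripts similar to hemoglobin β, a subunit of the proteasome, ribosomal protein S15a, the autophagy protein APG12, mitochondrial ribosomal protein L17 and the ubiquitin ligase CHFR, and 2 are described only as a transcribed locus. One of the 16 was under the filter, at a mean of 2.31 (log2). Of the 15 tested, 4 were lower in clenbuterol livers by limma and 0 were higher, beside 12.4% lower and 11.4% higher of all tested probe sets. Their adjusted p lay between 0.0381 and 0.0499, and 1 of them, an ALB-listed transcribed locus at −0.42 (log2), also passed on the series intensities (limma adjusted p = 0.0363). The hemoglobin-described probe set, listed as ALB with a second gene, had 14.46 and 14.44 in clenbuterol livers, against 14.77 and 14.81 in control livers (difference −0.34, limma adjusted p = 0.0445). Under TTR, the CHFR-described probe set differed by −0.51 (limma adjusted p = 0.0381) and that of mitochondrial ribosomal protein L17 by −0.39 (limma adjusted p = 0.0484). A search by symbol alone would have counted these 4 calls under ALB and TTR.

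Other plasma proteins of the hepatocyte were taken from a list of 42 genes, of which 22 were measured by a probe set whose description names them. By limma, 5 of the 22 rose and 0 fell, beside 190 of 655 named genes that passed (29.0%), 153 higher and 37 lower. The median difference of the list was 0.07 (log2), beside −0.03 over all tested probe sets. Calls among named genes were mostly higher, so the median of all tested probe sets is not a like background for the list. CRP (C-reactive protein, an acute-phase protein) rose 1.82-fold, at 12.14 ± 0.10 in clenbuterol livers and 11.27 ± 0.05 in control livers (log2, SD, n = 2 each, limma adjusted p = 0.0101). ORM1 (orosomucoid, an acute-phase protein in people) rose 1.67-fold, at 15.49 ± 0.04 in clenbuterol livers and 14.75 ± 0.02 in control livers (limma adjusted p = 0.0101). This call was lost on the series intensities. KNG1 (kininogen, the precursor of bradykinin) rose 1.55-fold in its brightest probe set (limma adjusted p = 0.0162), the only 1 of its 4 that passed, and the lowest of the 4 differed by 0.07 (log2). ITIH4, another member of the inter-α-trypsin inhibitor family, rose 1.49-fold, at 13.63 ± 0.02 in clenbuterol livers and 13.06 ± 0.10 in control livers (limma adjusted p = 0.0196). The fifth gene was IGFALS, which holds insulin-like growth factors in plasma and is named after its value was seen (0.71 ± 0.15, log2, SE, limma adjusted p = 0.0361).

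Among the list's 17 genes that did not pass, APOC3, an apolipoprotein of triglyceride-rich particles, was at 15.51 ± 0.04 (log2) in clenbuterol livers and 15.56 ± 0.02 in control livers. HP (haptoglobin, which binds free hemoglobin and is an acute-phase protein in pigs) was at 15.52 ± 0.01 in clenbuterol livers and 15.50 ± 0.02 in control livers (SD, n = 2 each). On log2 of the series intensities 1 of the 22 passed, CRP, and the other 4 had differences from 0.38 to 0.54 (log2) that did not pass. ORM1 had the lowest of these, 0.38 against 0.74 in the GCRMA values (limma adjusted p = 0.112). For A2M the brightest probe set did not pass while its second was higher by 1.67 (log2), and for IGF1 the brightest did not pass while its second differed by −1.03, so the size and the call for these genes depend on the probe set.

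**Figure D5:**
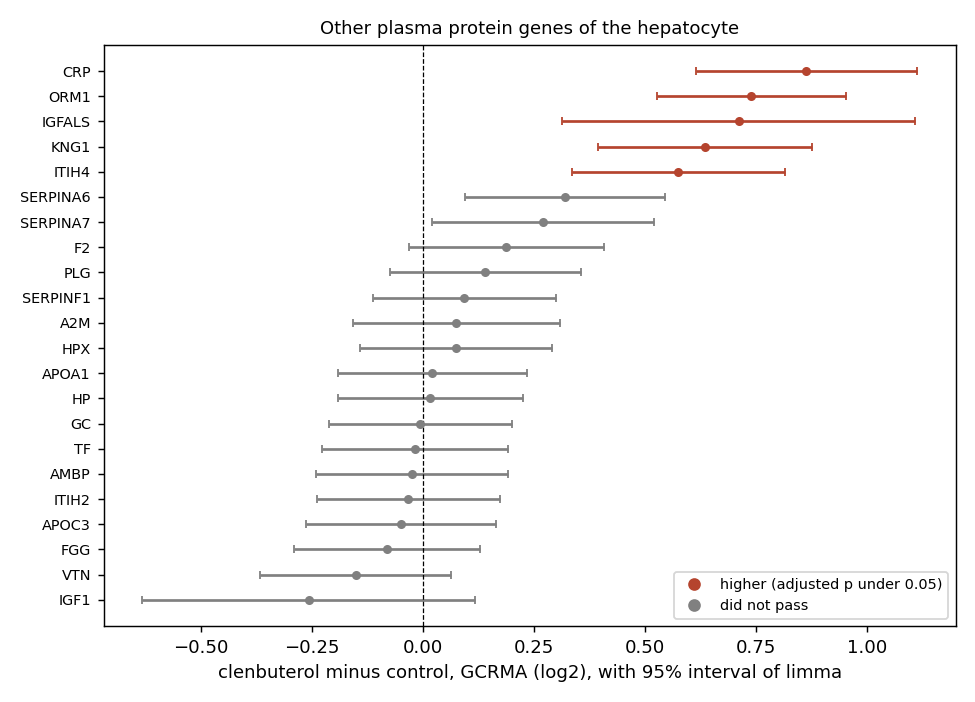
Difference of each of the 22 other plasma protein genes (clenbuterol minus control, GCRMA, log2, horizontal axis) with its 95% interval from limma, on the brightest probe set of each gene. The 5 genes in red passed an adjusted p of 0.05 at differences from 0.57 to 0.86, and the others, in grey, lie between −0.26 and 0.32.

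Of the liver transcription factors, 4 of 15 were measured and 1 passed, which was lower. Of 655 named genes, 190 passed (29.0%), 153 higher and 37 lower. CEBPB (C/EBPβ, a factor that acts on acute-phase gene promoters) was lower in clenbuterol livers in the GCRMA values, at 12.57 ± 0.07 (log2) against 12.99 ± 0.05 in control livers (1.34-fold, limma adjusted p = 0.0348). With the series values scaled to the spiked-in controls it differed by 0.0017, where the median of all tested probe sets was at 0.35. The series intensities as deposited gave −0.37 (limma adjusted p = 0.0871). Neither STAT3, the transcription factor of interleukin-6 signalling, nor CEBPA, a factor of the ALB promoter, passed in the GCRMA values. STAT3 was at 11.77 ± 0.05 in clenbuterol livers and 11.47 ± 0.05 in control livers (SD, n = 2 each, limma adjusted p = 0.0648). On the series intensities as deposited, its difference was 0.26 (log2, limma adjusted p = 0.190). Scaled to the spiked-in controls, it was 0.63 (limma adjusted p = 0.0363), where the median of all tested probe sets was at 0.35. CEBPA was dim, at 5.70 ± 0.49 in clenbuterol livers and 5.99 ± 0.55 in control livers (limma adjusted p = 0.579).

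For retinol and thyroxine, the cargo of RBP4 and TTR, 5 of 13 genes were measured and 2 rose, beside 153 of 655 named genes. DIO1, which makes the active hormone triiodothyronine from thyroxine, rose 3.60-fold, at 8.43 ± 0.01 (log2) in clenbuterol livers and 6.59 ± 0.22 in control livers (limma adjusted p = 0.0053). DGAT1, an acyltransferase that can also esterify retinol, rose 1.39-fold (limma adjusted p = 0.0323, and 0.0968 on the series intensities). SERPINA7, thyroxine-binding globulin, was at 9.43 ± 0.08 in clenbuterol livers and 9.16 ± 0.07 in control livers (SD, n = 2 each) and did not pass (limma adjusted p = 0.107). THRA, a thyroid hormone receptor, was at −0.31 ± 0.11 (log2, SE, limma adjusted p = 0.120). Of the secretory pathway, through which every plasma protein leaves the hepatocyte, 4 of 33 genes were measured. Only 1 rose, beside the same 153 of 655 named genes. It was SAR1A, a GTPase of transport vesicles (1.42-fold, limma adjusted p = 0.0343). SAR1B and HSPA5, the chaperone BiP, were at 0.02 and −0.14 (log2 difference) and did not pass. For SAR1B this is the brightest of 3 probe sets, which differed by −0.45 to 0.32, and 0 of them passed. The medians were −0.20 for the transcription factors, 0.27 for the retinol and thyroxine genes and −0.02 for the secretory genes, beside −0.03 over all tested probe sets. The lists hold named genes, whose calls were more often higher than lower, so the median of all tested probe sets is not a like background.

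Among markers of liver cell types, calls in the GCRMA values were found for every measured type except the hepatocyte, beside 29.0% of named genes that passed. In bulk liver RNA, fewer cells of a type and less RNA per cell cannot be told apart. Of 12 hepatocyte markers that are no members, 6 were measured and 0 passed by limma (0 at an unadjusted p under 0.05). They were bright, with means from 12.78 (HPD) to 15.54 (APOC3, log2), except APOB at 4.70. Of all tested probe sets with a mean of at least 14, 7.14% passed, and of those from 12 to 14, 83 of 440. A low count is thus common at this brightness. CYP2E1, a cytochrome of ethanol metabolism, was at 15.26 ± 0.0027 (log2) in clenbuterol livers and 15.18 ± 0.05 in control livers. Stellate cell and fibroblast markers had 4 of 6 measured genes higher and 1 lower. COL1A1, a chain of type I collagen, rose 2.68-fold (limma adjusted p = 0.0058), while RGS5 was 2.58-fold lower (limma adjusted p = 0.0176). COL3A1 passed in its brightest probe set (0.44, log2), the only 1 of its 3 that did, and the lowest of the 3 differed by −0.14. The summed series intensity of the 6 measured genes was 14255 and 14602 in the clenbuterol pigs, against 10612 and 10477 in the control pigs. CD14 and AIF1, of 3 macrophage markers, and CD2, of 3 T and NK cell markers, were higher. Endothelial markers had 2 of 5 higher and 1 lower, and cholangiocyte markers 2 of 4 lower (CLDN4 and GGT1, whose sign turned after spike scaling), and no erythroid marker was measured by a probe set whose description and symbol agree. On the series intensities 3 stellate cell and fibroblast, 1 macrophage (CD14) and 1 T and NK cell marker passed, and 0 endothelial and 0 cholangiocyte markers. The summed intensity of the macrophage markers was 12664 and 13117 in the clenbuterol pigs, against 9749 and 10298 in the control pigs, and that of the T and NK cell markers 1235 and 1117, against 968 and 798. For endothelial markers the sums were 5049 and 4430 in the clenbuterol pigs, against 4819 and 4626 in the control pigs, and for cholangiocyte markers 1725 and 1472, against 1794 and 1675. The summed hepatocyte intensity was 119057 and 130136 in the clenbuterol pigs, against 119337 and 136132 in the control pigs. Their part in the members' values was not tested.

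The gap between the ends of control transcripts, a sign of RNA quality, and the level of the spiked-in controls also differed between the groups. Of 10 transcripts with control probe sets at both ends, the gap between the 3′ and the 5′ set was smaller on both clenbuterol arrays than on both control arrays in 7. For GAPDH it was 1.03 and 1.28 (log2) in the clenbuterol pigs, against 1.68 and 1.81 in the control pigs. Scaling the series intensities to 27 spiked-in control probe sets moved the median difference over all tested probe sets up to 0.35 (log2), and turned the split of calls to 2959 higher and 254 lower, beside 1365 and 1478 in the GCRMA values. Under that scaling the 6 bright probe sets were at 0.32 to 0.45, each above the upper limit of its interval in the GCRMA values. The intervals given for the GCRMA values thus hold on that scale only. The EST probe set of ITIH1 was at −0.0077. None of the 7 passed when these scaled differences were tested against 0. Relative to the shifted median they lay between −0.36 and 0.10, which was not tested. The part of the 3′ to 5′ gap in the members' values was not tested.

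The named genes whose centred GCRMA values over the 4 arrays ran closest to the mean profile of the 6 genes, taken on the brightest probe set of each, were RPL19, RPS3A, TPM3, GC and RPS29, out of 649. Their root mean square distances from it were 0.0067 to 0.013 (log2). RPL19, RPS3A and RPS29 encode ribosomal proteins, TPM3 a tropomyosin, and GC the vitamin D-binding protein of plasma. Group differences of these 5 genes lay between −0.01 and 0.02 (log2), and the mean profile itself moved only between −0.01 and 0.01. That profile averages members of opposite sign, such as RBP4 at 0.15 and SERPINA1 at −0.12. Closeness to it thus picks genes that were flat over the 4 arrays, not genes that followed each member.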

How the data were processed

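Total liver RNA (6 ug per pig, biotin-labelled cRNA, per the labels' protocols) was hybridised to 1 Affymetrix porcine array per pig. The log2 values were made by the authors with GCRMA, per the file headers and also per the submitters' processing notes, in an unstated version. The authors deposited these values for 15383 probe sets in columns that name the group but no replicate. The series table holds linear intensity values for 24123 probe sets (124 of them array controls), deposited with the replicate and sex, and their making is not given in sources used here. Their mean after trimming was 500.1 on every array. Per the file headers, the authors deposited further columns with a limma p-value, a SAM q-value and a score, their signed fold.

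Member symbols PI and FETUIN were updated by gene ID through an NCBI RefSeq pig gene table of Sscrofa11.1, used for names only, which added 2 of the 7 probe sets to the 5 whose symbol matched directly. A probe set counted as a gene only where its target description named that gene (959 probe sets, 830 genes). Probe sets with a log2 value of at least 4 on at least 2 arrays (11931) were tested in R 4.3.3 with limma 3.58.1 (lmFit, eBayes), with group alone in the model, and p-values were adjusted by Benjamini-Hochberg over all of them at 0.05. Males and females were compared on log2 series intensities with group and sex in the model. Intervals are at 95% from the same fits. The samples are separate pigs, and each SD is over 2 of them.

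All member probe sets are given. In each list the text names up to 4 passing genes with the smallest p and up to 2 others with the largest mean, on the brightest tested probe set, and the 5 genes closest in profile. The members and the gene lists were chosen with earlier results of these data known. The alternatives were other filters, prior variances, tables, scalings, a block on the replicate number and leaving out each array. The fits were tested on simulated data.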

Additional observations from a re-analysis of the deposited data

Results flagged for a closer look

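ALB and AHSG had opposite signs in the male and the female pair of the series intensities. ALB was higher in the clenbuterol male than in the control male by 0.023 (log2), and lower in the clenbuterol female than in the control female, at −0.064. AHSG was at 0.096 in males and −0.04 in females. The difference between the pairs, each 1 pig against 1, was not tested, and 25.5% of all tested probe sets also had opposite signs.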

How the results depend on the processing

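The differences of the 6 bright probe sets stayed on their side of the adjusted threshold under each of 12 alternatives, except RBP4, which passed with the trend option (adjusted p = 0.0354). With it 2 of the 7 probe sets passed. The EST probe set of ITIH1 passed under 4 of 12, and was at −0.0077 (adjusted p = 0.980) after spike scaling. The count was 0 on the series intensities, with or without the replicate block, after spike scaling, after quantile normalization and in every leave-one-out fit, which leaves a lone array assumed to vary like the other group. Signs turned for ALB (0.35 after spike scaling, 0.062 after quantile normalization), TTR (0.34 and 0.012), SERPINA1 (0.32 after spike scaling) and the mRNA probe set of ITIH1 (0.32), where spike scaling moved the median of all probe sets to 0.35. Over all tested probe sets 2843 passed, against 1326 on the series intensities, 1054 with the replicate block, 1294 after quantile normalization and 579 to 1213 in leave-one-out fits. The cause was not tested. On the series intensities the lists had 1 gene passing of the plasma proteins, 0 of the transcription factors and 1 of the retinol and thyroxine genes. Same-numbered arrays deviated together with a correlation of 0.18, which 2 pairs do not show to be a pairing, and the block changed no call of the members. Signal over background was no limit for the members, all well above the filter of 4.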

Other observations

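ITIH3 and FETUB, relatives of ITIH1 and AHSG, had no probe set under their own symbols, but 4 probe sets listed as tubulin alpha are described as ITIH3 (3) or FETUB (1). They were singled out after their values were seen. The 3 described as ITIH3 differed by 1.70 ± 0.13, 1.24 ± 0.08 and 0.23 ± 0.08 (log2, SE, limma adjusted p = 0.0056, 0.0045 and 0.120). The dimmest averaged 9.60 ± 0.15 in clenbuterol livers and 7.90 ± 0.14 in control livers, and the brightest 13.27 ± 0.06 in clenbuterol livers and 13.03 ± 0.04 in control livers (log2, SD, n = 2 each). These probe sets thus gave folds from 1.17 to 3.26 for what the array design describes as 1 gene. The FETUB-described probe set was at 13.17 ± 0.10 in clenbuterol livers and 12.79 ± 0.02 in control livers (SD, n = 2 each, limma adjusted p = 0.0494), and on the series intensities at an adjusted p of 0.204.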
